A study of Mus musculus with 12 samples.

Results

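The regions described here were stretches of cortical chromatin that carried H3K27ac in cortical interneurons (CINs), had no called H3K27ac peak in the other cortical cells, and lay between genes. They were chosen by presence and absence of H3K27ac peaks. Each list was first merged over gaps of up to 500 bp, CIN peaks with no overlap in the non-CIN list of the same replicate number were kept, and the stretches shared by CIN replicates 1 and 2 were taken. This gave 4182 CIN-only regions, which is 11.7% of the 35768 H3K27ac stretches shared by both CIN lists. Of these, 1705 had their centre in no gene of the GENCODE annotation and outside the promoter window, which reached 1 kb upstream and 100 bp downstream of each transcription start site (TSS). The other CIN-only regions had their centre inside genes (2319), in a promoter window (157) or on an unplaced scaffold (1). Among the 8380 shared stretches between genes, 20.3% were CIN-only. The count rests on requiring both replicates, since replicate 1 alone gave 5669 such regions and replicate 2 alone 3256.

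The tissue was cerebral cortex of heterozygous *Gad67-GFP* pups at postnatal day 2, in which GFP is driven from the *Gad1* locus and marks GABAergic cells. Sorting of the dissociated tissue gave GFP+ cells, called CINs, and GFP- cells, called non-CINs, and every pup carried the GFP allele, so that no group came from wild-type animals. Each sample pooled tissue from several litters, and each population and mark had 2 replicates. The GFP+ gate takes all interneuron subtypes together, and the GFP- gate holds projection neurons, glia and other cells. Fold enrichment, a ratio of ChIP over input signal, is the peak caller's value for a peak as deposited, and its percentile is its rank within its own list. The files hold no read counts, so the depth of each sample is unknown and absence means only that no peak was called. In sorted pools, a mark on fewer cells and less of the mark per cell cannot be told apart.

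H3K27ac is deposited by the acetyltransferases CBP and p300 and marks active promoters and enhancers, whereas H3K27me3 is written by Polycomb repressive complex 2 and marks silenced developmental genes. Enhancers of developmental regulators often lie far from the gene they control, in the long spaces between genes, and several can act on the same promoter. In the embryonic ganglionic eminences, where CINs are born, DLX homeodomain factors bind TAATTA sites and, together with LHX6, MEIS, SOX and NR2F proteins, set the interneuron programme.

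The sorted populations were checked at the start sites of defining markers. Of 9 interneuron markers, H3K27ac peaks covered a start site of 8 in CIN replicate 1 and 6 in CIN replicate 2, against 0 and 1 in non-CINs. *Lhx6* had none in any list. Of 8 markers of projection neurons and glia, 5 and 6 had a peak in the non-CIN lists and 4 in each CIN list, among them *Aldh1l1* and *Slc1a3* of astrocytes. *Neurod6*, a gene of projection neurons, had one in both CIN lists and in non-CIN replicate 2 only. The GFP- markers were thus not absent from the CIN lists, and the part of this in the results below was not tested. The 2 CIN lists also differed in size, with 62505 peaks in replicate 1 and 46310 in replicate 2.

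Sequences are shown for the 3 strongest regions that carried a TAATTA core within 200 bp of sequence around their centre. Strength was the lower of the 2 percentiles in the CIN lists. Each is given on the plus strand of mm10, with cores bound by DLX and LHX (TAATTA) and by SOX proteins (CTTTGT, or ACAAAG on the other strand) in capitals. The first lay at chr3:70683423-70683622, the second at chr12:88579922-88580121 and the third at chr1:164590246-164590445.
Otol1 region: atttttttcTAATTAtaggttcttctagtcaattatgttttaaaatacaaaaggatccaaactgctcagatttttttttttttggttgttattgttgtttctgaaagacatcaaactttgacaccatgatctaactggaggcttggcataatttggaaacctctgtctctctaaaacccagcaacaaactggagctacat
Nrxn3 region: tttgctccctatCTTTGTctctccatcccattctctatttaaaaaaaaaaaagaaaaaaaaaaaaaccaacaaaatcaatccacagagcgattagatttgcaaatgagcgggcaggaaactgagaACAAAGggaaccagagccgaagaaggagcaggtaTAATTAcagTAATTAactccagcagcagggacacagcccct
Atp1b1 region: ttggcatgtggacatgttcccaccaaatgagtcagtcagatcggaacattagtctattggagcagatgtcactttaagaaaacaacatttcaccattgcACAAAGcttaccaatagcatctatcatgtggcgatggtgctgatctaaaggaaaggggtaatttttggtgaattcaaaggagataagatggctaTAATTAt
The *Otol1* sequence held 1 TAATTA core and no SOX core. The *Nrxn3* sequence held 2 of each, with both TAATTA cores near its 3′ end, and the *Atp1b1* sequence held 1 of each. None held the MEIS core CTGTCA. The GC content of the 3 windows was 32.5%, 40.0% and 39.0%, below the median of 44.5% over all 1705 regions.

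The regions were short and of moderate strength. Their median length was 376 bp (quartiles 240 and 674 bp), 214 were 1 kb or longer and the longest was 2944 bp. They covered 884 kb in all. Because a region is the stretch common to both replicates, 164 were shorter than the 200 bp minimum of a called peak and the shortest was 2 bp. The fold enrichment of their strongest peak had a median of 4.02 in CIN replicate 1 (range 2.94–7.82) and 4.16 in CIN replicate 2 (range 3.32–9.31). Against all peaks of the same list these medians were unequal. The median percentile was 57.7 in replicate 1 and 34.2 in replicate 2. Both percentiles were 75 or above in 64 regions and both were under 25 in 130. Across the 1705 regions, the Spearman correlation between the fold enrichments of the replicates was 0.53, and between fold enrichment and length it was 0.50 in replicate 1 and 0.43 in replicate 2. These are descriptions across regions that share the same libraries, and peaks had to pass the calling threshold in both.

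**Figure D1:**
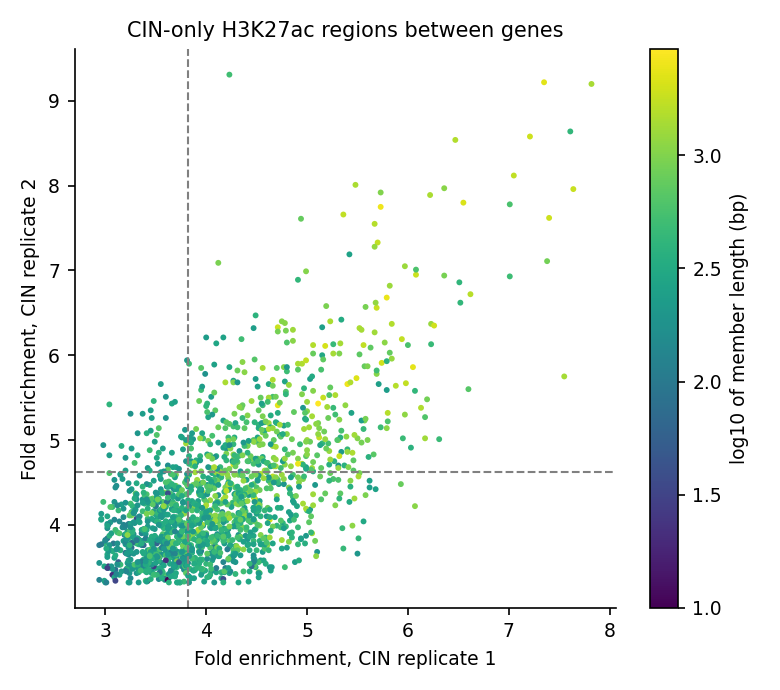
Fold enrichment of the strongest H3K27ac peak at each of the 1705 CIN-only regions between genes, in CIN replicate 1 (x axis, ratio to input) and CIN replicate 2 (y axis, ratio to input). Points are coloured by log10 of region length in bp (lengths under 10 bp drawn as 10), and dashed lines mark the median of all peaks of each list, 3.82 and 4.63. The medians of the points, 4.02 and 4.16, lie to the right of the vertical line and below the horizontal one, and the longer regions lie towards the upper right.

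The strongest region by the lower percentile was 2261 bp long and lay 676 kb downstream of *Otol1*, the gene of the inner ear matrix protein otolin, at chr3:70682393-70684653. Its fold enrichment was 7.35 in CIN replicate 1 and 9.22 in CIN replicate 2 (percentiles 97.4 and 96.0), and the nearest non-CIN peak was 181 kb away in either replicate. The next region (1411 bp, chr18:83656502-83657912) had 7.82 and 9.20 and was nearest to *Tshz1*, a zinc finger factor of the ventral forebrain, at 429 kb. A region of 418 bp, 24.8 kb upstream of *Atxn2l*, had 7.61 and 8.64.

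Next in order came regions near *Gpat3*, *Nrxn3* and *Atp1b1*. The region 245 kb downstream of *Gpat3*, which encodes an enzyme of glycerolipid synthesis, had fold enrichments of 7.21 and 8.58. A region 214 kb upstream of *Nrxn3*, the gene of the presynaptic adhesion protein neurexin 3, had 6.47 and 8.54. The region 132 kb upstream of *Atp1b1*, a subunit of the sodium pump, had 7.05 and 8.12, and a non-CIN peak lay only 3.02 kb away in replicate 1. All of these had higher fold enrichment in replicate 2 than in replicate 1, a list whose median over all peaks was also higher.

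The remaining 4 of the 10 strongest were nearest to *Msra*, *Ostn*, *Zc3h12a* and *Arhgap40*. The *Msra* region, upstream of a methionine sulfoxide reductase gene, had fold enrichments of 6.36 and 7.97. The region near *Ostn*, the gene of the secreted peptide osteocrin, was 1811 bp long, had 7.64 and 7.96, and lay 131 kb from the nearest non-CIN peak in replicate 1. The *Zc3h12a* region, near an RNase gene of the immune response, had 6.22 and 7.89 and also carried H3K27me3 peaks in CIN replicate 2 and in both non-CIN lists. The *Arhgap40* region, near a gene of a GTPase-activating protein, had 6.55 and 7.80 and an H3K27me3 peak in non-CIN replicate 2 only.

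For most regions the nearest called non-CIN H3K27ac peak lay over 10 kb away. The same share was not taken for other classes of region, so it is not shown to be particular to these. The median gap to the nearest non-CIN peak was 26.5 kb in replicate 1 and 33.6 kb in replicate 2. No non-CIN peak lay within 10 kb in either replicate for 1220 regions (71.6%), and 53 had one within 1 kb. At the limit of the rule, the smallest gap of a region to a non-CIN peak was 12 bp, and the smallest overlap for which a stretch was left out was 13 bp. The 2 regions with a gap of 50 bp or less had a median lower percentile of 11.01, and the 10 stretches left out for an overlap of 50 bp or less had 13.8. A further 1145 stretches between genes met a non-CIN peak in exactly 1 replicate number (807 in replicate 1 and 338 in replicate 2). Their median lower percentile was 31.7, and that of the 1705 regions was 30.98. These values are part of what chose the regions and were not tested.

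The regions lay far from the TSSs of protein-coding genes, and the distance to the nearest gene body was not measured. The median distance from their centre to the nearest protein-coding TSS was 109 kb (quartiles 37.4 and 263 kb). Common regions between genes, which carried H3K27ac in all 4 lists (n = 5503), had a median of 64.1 kb, and non-CIN-only regions between genes (n = 724) had 62.1 kb. More than 100 kb separated 889 of the 1705 regions from any protein-coding TSS (52.1%, 95% Wilson interval 49.8–54.5%). This share was 38.1% (36.9–39.4%) in common regions, an odds ratio of 1.77 (95% interval 1.58–1.97; two-sided Fisher's exact test over regions, adjusted p = 4.5e-24). In non-CIN-only regions it was 36.6% (33.2–40.2%), an odds ratio of 1.89 (1.58–2.26; Fisher's exact test, adjusted p = 2e-12). The share was higher than in common regions on 19 of 20 chromosomes and higher than in non-CIN-only regions on 18 of 20. These p-values, and those of the motifs, run across regions, which are not independent replicates. With 2 lists on each side, an exact test across samples cannot go below p = 0.333.

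Over 500 kb from any protein-coding TSS lay 157 regions (9.21%), and 110 genes were nearest to them. The farthest lay 2009 kb from the TSS of *Aga*, a lysosomal amidase gene, with fold enrichments of 3.85 and 4.97. Within 10 kb lay 105 regions (6.16%), against 13.1% of the common and 13.4% of the non-CIN-only regions. When TSSs of every annotated gene were counted, noncoding ones included, the median distance fell to 26.8 kb. Across the regions, the Spearman correlation between distance and the lower percentile was -0.03. Upstream of the nearest TSS lay 1043 regions.

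**Figure D2:**
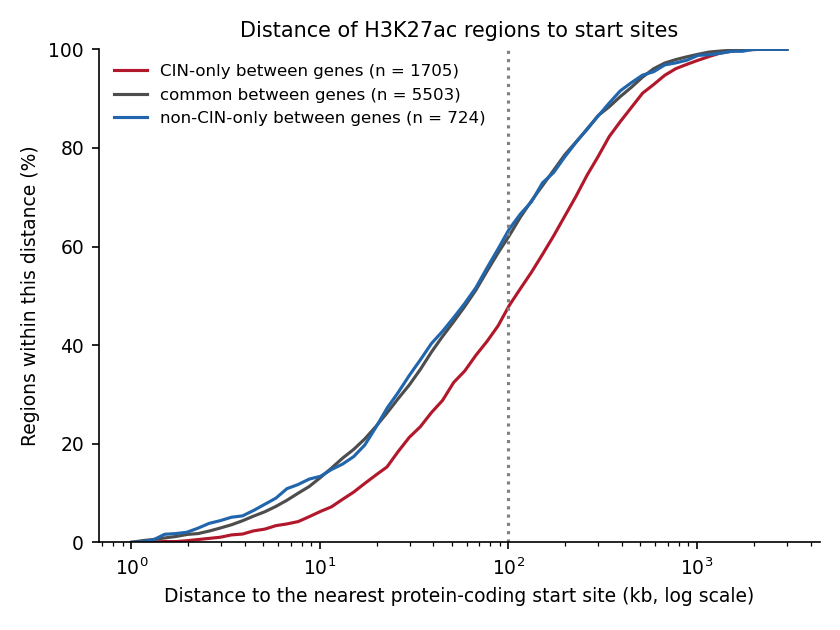
Share of regions (y axis, %) whose centre lies within a given distance of the nearest protein-coding start site (x axis, kb, log scale), for CIN-only, common and non-CIN-only H3K27ac regions between genes. The dotted line marks 100 kb, within which lie all but 52.1% of the CIN-only, 38.1% of the common and 36.6% of the non-CIN-only regions. The CIN-only curve runs below the other curves over most of the range, and those nearly coincide.

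Some regions lay in loose groups. Another member of the class lay within 50 kb, edge to edge, of 489 of the 1705 regions (28.7%, 95% Wilson interval 26.6–30.9%). A CIN-only region between genes lay within 50 kb of 13.8% of the common regions (12.9–14.7%) and of 10.4% of the non-CIN-only regions (8.34–12.8%). How often regions of those classes lay near their own class was not measured, so grouping is not shown to be particular to CIN-only regions. A peak that meets several peaks of the other replicate also gives several neighbouring members. With regions called from replicate 1 alone the share of members was 51.3%, from replicate 2 alone 35.6% and with no merging 43.9%. It was 22.8% with a −log10 q of at least 4 and 15.2% where replicates had to overlap by 50% of both peaks. CIN-only regions of the other kinds, inside genes or at promoters, were within 50 kb of 120 members (7.04%), and a common region was within 50 kb of 883 (51.8%). Joining members up to 50 kb apart gave 1216 single regions and 218 groups, of which 1 held 5 members and none held more. These shares are descriptions with no test, and members of a group share a stretch of chromosome.

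The largest group held 5 regions over 110 kb on chromosome 15, from 214 to 323 kb upstream of *Mroh5*, with no protein-coding gene in its span. Their fold enrichments ran from 3.44 to 5.33 in CIN replicate 1 and from 3.53 to 6.14 in CIN replicate 2, and the strongest was also the longest at 1374 bp. The group near *Sp8*, a zinc finger factor of interneurons from the caudal and dorsolateral ganglionic eminence, held 4 regions over 67.6 kb, from 120 to 186 kb upstream. It had the greatest summed length of the 7 groups of 4, at 5518 bp, and the next 3 in that order are described with it.

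Within the *Sp8* group the longer regions were the stronger ones. The 2448 bp region at chr12:118725000-118727447 had fold enrichments of 5.79 and 6.68 in CIN replicates 1 and 2 (percentiles 88.3 and 81.9), and the 2061 bp region next to it had 5.18 and 6.11. The other 2, of 809 and 200 bp, had 4.26 and 4.26, and 3.28 and 4.13. The 200 bp region carried H3K27me3 peaks in CIN replicate 2 and both non-CIN lists, and the 2061 bp region in CIN replicate 2 and non-CIN replicate 2. At the *Sp8* start site itself, H3K27ac was called in CIN replicate 1 only and H3K27me3 in all 4 lists.

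A group of 4 over 37.6 kb lay between *Zc3h12a* and *Grik3*, a kainate receptor gene, on chromosome 4. Its strongest region, nearest to *Grik3*, was 1505 bp long with fold enrichments of 5.43 and 5.68. The 4 regions near *Glrp1* on chromosome 1 spanned 74.3 kb, and only the longest of them passed the 50th percentile in replicate 2, with 4.78 and 6.38. The 4 regions near the uncharacterised gene *A230072I06Rik* on chromosome 8 spanned 43.3 kb and had percentiles from 45.2 to 80.9 in replicate 1 but from 0.5 to 60.3 in replicate 2. None of the 5 groups contained a non-CIN-only region, and the last one contained 1 common region.

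**Figure D3:**
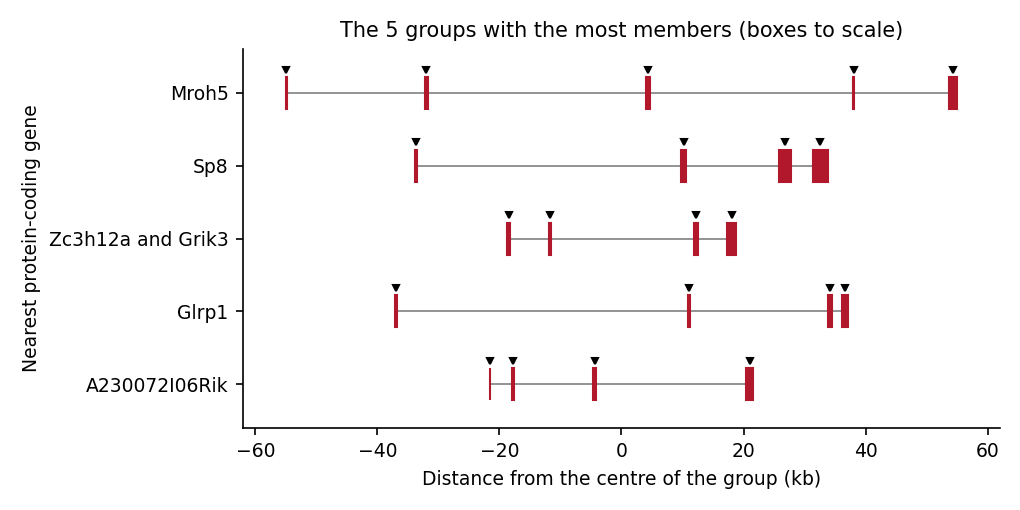
Map of the group of 5 CIN-only regions between genes and of the 4 groups of 4 with the greatest summed length, when regions up to 50 kb apart are joined. The x axis is distance from the centre of each group in kb, boxes are regions drawn to scale, triangles mark each region, and the name at the left is the nearest protein-coding gene. The *Mroh5* group is the longest (110 kb), and the widest boxes are in the *Sp8* group.

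Assigned to the nearest protein-coding TSS, the 1705 regions fell to 1159 genes, which is 5.29% of the 21924 protein-coding genes annotated. Of these genes, 333 were nearest to 2 or more regions, 131 to 3 or more and 20 to 5 or more. The nearest gene is a label by position, and which gene a region acts on was not measured. *Castor2*, a gene of the mTORC1 pathway, and *Otol1* had 7 regions each. The *Castor2* regions lay 79.6 to 423 kb from its TSS, and 5 of the 7 *Otol1* regions lay over 500 kb away.

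The next genes, with 6 regions each, were *Pik3c3*, *A230072I06Rik*, *Celf4*, *Runx1t1*, *Nox3* and *Pik3r1*. *Celf4*, a neuronal RNA-binding protein gene, also had 13 CIN-only regions inside genes nearest to its TSS, and 4 of its 6 regions between genes lay over 500 kb away. *Runx1t1*, a transcriptional corepressor gene, had weak regions, the highest lower percentile being 29.2, and H3K27me3 at its start site in all 4 lists. *Nox3*, an NADPH oxidase gene of the inner ear, had no H3K27ac at its start site in any list, and no common region between genes was nearest to it. *Pik3c3* and *Pik3r1*, a catalytic and a regulatory subunit of phosphoinositide kinases, had H3K27ac at their start sites in all 4 lists.

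A further 12 genes had 5 regions each. The 7 of them with the greatest summed length were *Hdgfl1*, *Galc*, *Dusp26*, *Fam98a*, *Gm26897*, *Nuf2* and *Mroh5*. *Galc*, a lysosomal galactosidase gene, had H3K27ac at a start site in all 4 lists, and *Dusp26*, a phosphatase gene, had it in CIN replicate 1 only. *Hdgfl1*, *Fam98a*, *Gm26897* and *Mroh5* had none in any list. The strongest region among these 7 genes was nearest to *Hdgfl1*, with a lower percentile of 87.1.

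The start sites of the 1159 nearest genes mostly did not share the CIN-only state. H3K27ac was called in all 4 lists at 465 of them (40.1%) and in no list at 407 (35.1%). It was called in both CIN lists and no non-CIN list at 17 (1.47%), and in both non-CIN lists and no CIN list at 6 (0.518%). Over the 2952 genes nearest to a common region between genes, the same 4 shares were 41.4%, 33.7%, 1.25% and 0.711%. Over all 21924 protein-coding genes they were 33.9%, 49.5%, 0.990% and 0.388%. The CIN-only state was at 1.57% of the genes nearest to non-CIN-only regions between genes. It was at 2.84% of those nearest to CIN-only regions inside genes. H3K27me3 was called in all 4 lists at 85 of the 1159 genes (7.33%), against 6.03% of the genes nearest to common regions and 5.21% of all protein-coding genes.

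Genes of interneuron development were examined by lists. Of 58 genes in 5 interneuron lists, 16 were nearest to at least 1 region, with 29 regions between them. Of 77 genes in 6 lists of projection neurons, glia, microglia and vessels, 11 were, with 18 regions. The share over all protein-coding genes was 5.29%. The lists were chosen with earlier results of these data known and hold developmental genes, which often have long flanks, so the counts are descriptions.

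Transcription factors of the caudal ganglionic eminence (CGE), the source of VIP and reelin interneurons, had the highest share of genes. Of 7 genes, 6 were nearest to 11 regions, which were *Nr2f1*, *Nr2f2*, *Prox1*, *Sp8*, *Nfix* and *Tox2*. Common regions between genes were nearest to 4 of the 7 and non-CIN-only ones to 2. *Nr2f1*, a nuclear receptor gene, had regions 403 kb and 479 kb upstream. The nearer, 1417 bp long at chr13:78601963-78603379, had fold enrichments of 4.19 and 5.68 in CIN replicates 1 and 2 (percentiles 62.8 and 70.5) and held the 126 bp amplicon of the enhancer hs1060 at chr13:78602083-78602208. The other, of 206 bp, had 3.85 and 4.75.

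*Nr2f2*, the paralogous nuclear receptor gene, had regions 256 kb and 230 kb downstream. The first was 1399 bp long, held a TAATTA core, had fold enrichments of 4.08 and 4.68, and carried H3K27me3 in non-CINs of both replicates but in CINs of neither. The second, of 207 bp, had 3.58 and 3.72 and no H3K27me3 peak. Single weaker regions were nearest to *Prox1* (4.47 and 3.87), *Nfix* (4.37 and 3.45) and *Tox2* (3.86 and 3.60). These 3 were in the lower part of the replicate 2 list, at percentiles 21.9, 3.7 and 9.6.

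Factors of the medial ganglionic eminence (MGE), the source of parvalbumin and somatostatin interneurons, had 3 of 11 genes with 8 regions, and common regions were nearest to 7 of the 11. *Maf*, a leucine zipper factor of MGE interneurons, had 4, on both sides of the gene. The strongest lay 332 kb downstream and was 1434 bp long, with fold enrichments of 5.23 and 6.40, and the others had 4.36 and 5.26, 4.34 and 4.06, and 4.34 and 4.35. *Zeb2*, which switches migrating cells to the cortical interneuron fate, had a region 673 kb upstream with 4.96 and 4.71 and one 786 kb upstream with 4.35 and 4.35. *Etv1*, an ETS factor also used in layer 5 neurons, had 2 weak regions, with 3.22 and 3.92, and 3.84 and 3.48.

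Of the 16 genes in the list of Dlx genes and subpallial regulators, 5 had 9 regions, 4 of them the *Sp8* group. This is 31.25% of the list, against 5.29% of all protein-coding genes. Common regions were nearest to 6 of the 16, and non-CIN-only regions to 0. *Dlx2* had a single region of 348 bp, 34.4 kb upstream, with fold enrichments of 3.97 and 3.47 (percentiles 56.1 and 4.3). *Sp9* had a 216 bp region 3.30 kb upstream with 3.55 and 4.62, a TAATTA core, and H3K27me3 in all 4 lists. *Isl1*, a LIM homeodomain factor of striatal neurons, had 2 regions (3.92 and 4.24, and 3.47 and 3.73), and *Ebf1*, also striatal, had 1 (4.29 and 3.56). No region was nearest to *Dlx1*, *Dlx5* or *Dlx6*.

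Genes that make, package and take up GABA and genes of interneuron subtypes were examined in the same way. Of 8 genes of the GABA list, 1 had a region (12.5%). Of 17 subtype genes 2 had regions (11.8%), namely *Sst* (somatostatin) and *Cck* (cholecystokinin), with 2 each. Over all protein-coding genes the share was 5.29%, and common regions were nearest to 2 of the 8 and 3 of the 17. By regulatory domains, which run from 5 kb upstream to 1 kb downstream of a TSS and are extended by up to 1 Mb, 3 of the 8 and 4 of the 17 had a region, against 1831 of all 21924 protein-coding genes. The stronger *Sst* region lay 7.13 kb upstream (3.93 and 4.46) and had H3K27me3 in non-CIN replicate 2 only, and the other had 3.37 and 3.57. The stronger *Cck* region, 54.9 kb upstream and 918 bp long, held a TAATTA core and had 4.79 and 6.29, against 3.91 and 4.17 for the other.

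Guidance genes had many. Of 20 ligands and receptors of interneuron migration, 11 were nearest to 18 regions, and common regions were nearest to 12. *Robo1*, a receptor for Slit proteins, had 4, at 447 to 635 kb, the strongest with 4.96 and 5.38. *Cxcr4*, the chemokine receptor that keeps migrating interneurons in their streams, had 3, the strongest with 4.23 and 5.19. *Epha4*, an ephrin receptor gene, had a region of 1859 bp with 4.71 and 6.33.

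In the other lists, regions were nearest to 2 of 11 MEIS and PBX genes (*Meis1* and *Meis2*) and 4 of 11 SOX genes (*Sox1*, *Sox14*, *Sox4* and *Sox11*), and common regions to 5 and 10 of these. Pallial neurogenic factors had 3 of 13 genes, each with 1 region, and *Neurod2* and *Neurod6* were among them, with regions of 148 and 38 bp. Layer identity factors had 4 of 16 genes with 9 regions (common regions were nearest to 11), of which 5 were nearest to *Bcl11a*. The strongest *Bcl11a* region, 659 kb downstream, had fold enrichments of 6.31 and 5.01 (percentiles 92.3 and 59), and the next had 5.33 and 4.37. Astrocyte and radial glia genes had 2 of 15, oligodendrocyte genes 1 of 11 (*Pdgfra*, with 3 regions), endothelial genes 1 of 11 and microglia genes 0 of 11. The longest *Pdgfra* region, of 1103 bp, had fold enrichments of 5.39 and 5.04 (percentiles 84.3 and 59.6). Common regions were nearest to 11 of the 15 astrocyte and radial glia genes, 4 of the 13 pallial factors and 6 of the 11 oligodendrocyte genes. They were nearest to 1 of the 11 endothelial and 0 of the 11 microglia genes. Non-CIN-only regions were nearest to 4 MEIS and PBX, 4 astrocyte and radial glia, 2 SOX, 2 endothelial and 1 pallial gene. They were nearest to 0 genes of the layer, oligodendrocyte and microglia lists. By regulatory domains the counts for members rose to 5 for astrocyte and radial glia genes and 5 for pallial factors. They rose to 4 for MEIS and PBX genes and 2 for endothelial genes.

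**Figure D4:**
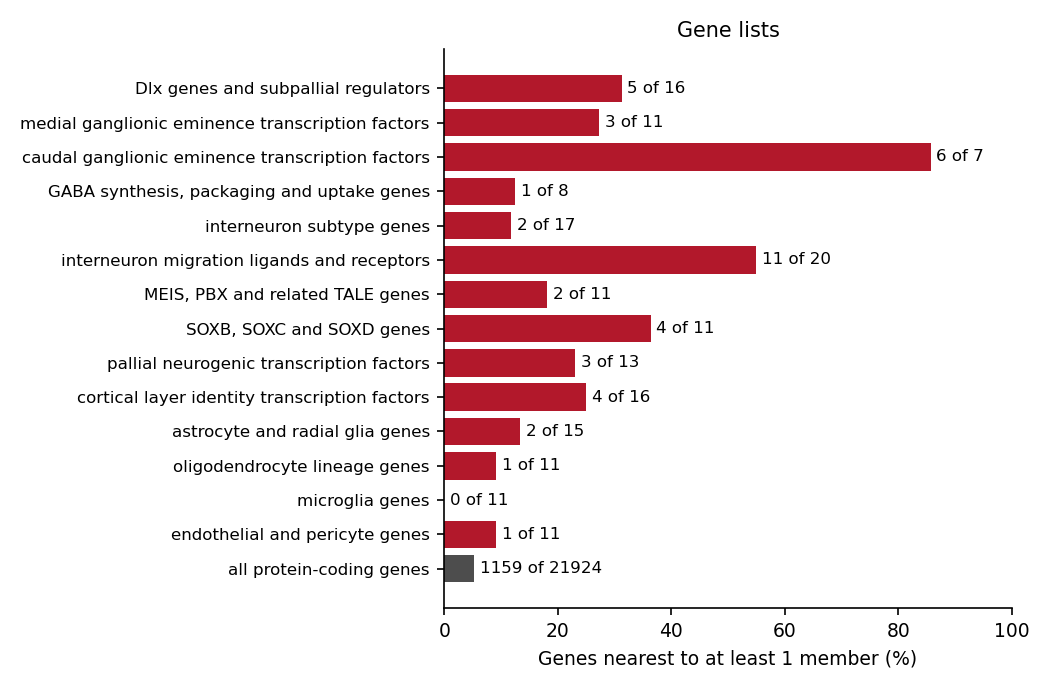
Share of the genes of each list (x axis, %) that are the nearest protein-coding gene of at least 1 CIN-only region between genes, with the counts beside the bars. The grey bar is the share over all protein-coding genes (5.29%). The longest bars are those of the caudal ganglionic eminence factors (6 of 7) and the migration genes (11 of 20).

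H3K27me3 was not used to choose the regions. No H3K27me3 peak touched 1597 of the 1705 regions (93.7%) in any list, against 96.5% of common, 97.9% of non-CIN-only regions between genes and 91.8% of CIN-only regions inside genes, with no test. A peak was present at 19 regions in CIN replicate 1, 58 in CIN replicate 2, 42 in non-CIN replicate 1 and 97 in non-CIN replicate 2, which are 1.11%, 3.402%, 2.46% and 5.69%. Where the populations differed, the peak was mostly in non-CINs. In replicate 1 it was in non-CINs only at 25 regions and in CINs only at 2. In replicate 2 these counts were 49 and 10. In both replicates at once they were 12 and 0. Each count sets 1 library against another, and regions are not replicates of a population, so the counts are given as a description with no test.

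Those 12 regions are 0.704% of the members, and the same state was found at 0.274% of the 8380 H3K27ac stretches between genes shared by both CIN lists, members included. CIN-only regions inside genes were alike in this, with 10 in that state and 0 in the opposite one among 2319. Among common regions between genes it was found at 5 and the opposite state at 9 of 5503. The non-CIN H3K27me3 lists were larger than the CIN lists in both replicate numbers (45081 against 38158 peaks, and 42575 against 36662), and the part of this in the counts was not tested. At common regions between genes H3K27me3 was present at 1.18% (CIN replicate 1), 2.58% (CIN replicate 2), 1.40% (non-CIN replicate 1) and 2.49% (non-CIN replicate 2).

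The 12 regions with H3K27me3 in both non-CIN lists and in neither CIN list were nearest to *Nr2f2*, *Grik3*, *Sulf2*, *Foxo6*, *Msx3*, *Spock1*, *Dlg1*, *Sec14l1*, *Abcd4*, *Ttll11*, *Atp6v1g3* and *Gm26897*, and are all named because they were so few. The strongest by the lower percentile was near *Sulf2*, a sulfatase that edits heparan sulfate, 205 kb away at percentiles 86.6 and 73.0. The *Grik3* region of the group described above was at 84.8 and 70.5. The longest, 1721 bp, was nearest to *Gm26897*, and the *Dlg1* region was the weakest in replicate 2 at percentile 3.9.

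Sequence was not used to choose the regions. The paper on these data had, however, reported SOX, DLX and MEIS motifs in CIN-enriched H3K27ac peaks of the same libraries. Tests of those cores below repeat a pattern already seen in these data and are no independent support for it. A DLX or LHX core (TAATTA, its own reverse complement) was present in the 200 bp at the centre of 212 of the 1705 regions (12.4%, 95% Wilson interval 10.95–14.1%). It was present in 6.18% of common regions between genes (5.57–6.85%), an odds ratio of 2.16 (1.80–2.58; two-sided Fisher's exact test, adjusted p = 1.5e-14 over 21 tests). In non-CIN-only regions between genes the share was 4.97% (3.61–6.81%), an odds ratio of 2.71 (1.88–3.91; Fisher's exact test, adjusted p = 5.3e-08). Within strata of GC content these odds ratios fell to 1.65 and 2.23 (Mantel-Haenszel tests, adjusted p of 2e-06 and 7.7e-05). Among all 35752 H3K27ac stretches shared by the CIN lists on assembled chromosomes it was 5.42%. The share in members was higher than in common regions on 18 of 20 chromosomes and higher than in non-CIN-only regions on 17. CIN-only regions inside genes had 10.2% (9.01–11.5%), an odds ratio of 1.25 (1.03–1.53; Fisher's exact test, adjusted p = 0.039), a difference that was not called with a 500 bp window (adjusted p = 0.48) or within strata of GC content (Mantel-Haenszel test, adjusted p = 0.41).

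The SOX core CTTTGT, matched on both strands, was present in 28.2% of the regions (26.1–30.3%) and in 23.6% of common regions (odds ratio 1.27, 1.12–1.43; Fisher's exact test, adjusted p = 0.0005). The MEIS core CTGTCA was present in 18.8% (17.0–20.7%) and 13.8% (odds ratio 1.44, 1.25–1.66; Fisher's exact test, adjusted p = 6.8e-06). CAGATG, an E-box of the NEUROD and NEUROG factors of projection neurons, was also more frequent in the regions, at 18.8% (17.0–20.8%) against 14.6% (odds ratio 1.35, 1.17–1.56; Fisher's exact test, adjusted p = 0.00023). The E-box difference was not called from replicate 2 alone (odds ratio 1.06, exact test, adjusted p = 0.42) or with a −log10 q of at least 4 in every list (1.18, exact test, adjusted p = 0.14). At least 1 of the DLX, SOX and MEIS cores was present in 49.1% of the regions and in 37.9% of the common regions, and all 3 in 10 and 12 regions respectively. Over all H3K27ac stretches shared by the CIN lists, the shares of these 3 further cores were 20.8%, 14.5% and 13.5%. In non-CIN-only regions between genes the SOX core was at 20.4% (odds ratio 1.52, 1.24–1.88; Fisher's exact test, adjusted p = 0.00024) and the MEIS core at 14.5% (1.36, 1.07–1.73; Fisher's exact test, adjusted p = 0.023). The MEIS difference was not called with the 50% overlap or a wider promoter (exact tests, adjusted p of 0.08 and 0.1). CAGATG was at 12.3% there (1.65, 1.29–2.13; Fisher's exact test, adjusted p = 0.00024), and was not called from replicate 2 alone or with the stricter q value (exact tests, adjusted p of 0.08 and 0.17). A match is a description of the letters and not evidence of binding.

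The nuclear receptor half-site AGGTCA was less frequent, at 8.09% (6.89–9.48%) against 9.92% in common regions (odds ratio 0.80, 0.66–0.97; Fisher's exact test, adjusted p = 0.039). The POU core TTTGCAT was more frequent, at 6.74% against 5.22% (odds ratio 1.31, 1.05–1.64; Fisher's exact test, adjusted p = 0.032). Neither was called within strata of GC content (Mantel-Haenszel test, adjusted p of 0.13 and 0.43) or with a −log10 q of at least 4 (adjusted p of 0.11 and 0.42). The POU difference was also not called from replicate 1 or 2 alone (adjusted p of 0.058 and 0.54, exact tests) or without the replicate block (exact test, adjusted p = 0.097). The NFI half-site TGCCAA was at 15.9% (14.2–17.7%) and 17.2%, an odds ratio of 0.91 (0.78–1.05; Fisher's exact test, adjusted p = 0.27), but was called from replicate 2 alone (0.83, exact test, adjusted p = 0.0053). Against non-CIN-only regions between genes, TTTGCAT was more frequent, at 3.45% there (odds ratio 2.02, 1.30–3.14; Fisher's exact test, adjusted p = 0.003), a difference lost only with the stricter q value among 11 alternatives (exact test, adjusted p = 0.13). AGGTCA was less frequent, at 12.3% there (0.63, 0.47–0.83; Fisher's exact test, adjusted p = 0.004), and was not called with the stricter q value or the 50% overlap (exact tests, adjusted p of 0.17 and 0.2). TGCCAA was also less frequent, at 20.3% there (odds ratio 0.74, 0.59–0.93; Fisher's exact test, adjusted p = 0.02). The TGCCAA difference was not called from replicate 1 alone (exact test, adjusted p = 0.42), with the stricter q value, with a 50% overlap of replicates or with a 500 bp window (exact tests, adjusted p of 0.94, 0.22 and 0.1). Against CIN-only regions inside genes, none of the 6 cores other than TAATTA passed 0.05, with odds ratios from 0.94 to 1.22. TTTGCAT did so from replicate 1 alone (odds ratio 1.39, exact test, adjusted p = 2.5e-05), with no merging (1.34, exact test, adjusted p = 0.037) and with a 500 bp window (1.27, exact test, adjusted p = 0.011), and TGCCAA from replicate 1 alone (1.11, exact test, adjusted p = 0.027). AGGTCA was less frequent there from replicate 1 alone (0.83, exact test, adjusted p = 0.0028), and CAGATG from replicate 2 alone (0.85, exact test, adjusted p = 0.019). Over all H3K27ac stretches shared by the CIN lists, AGGTCA was at 8.81%, TTTGCAT at 4.15% and TGCCAA at 13.4%.

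**Figure D5:**
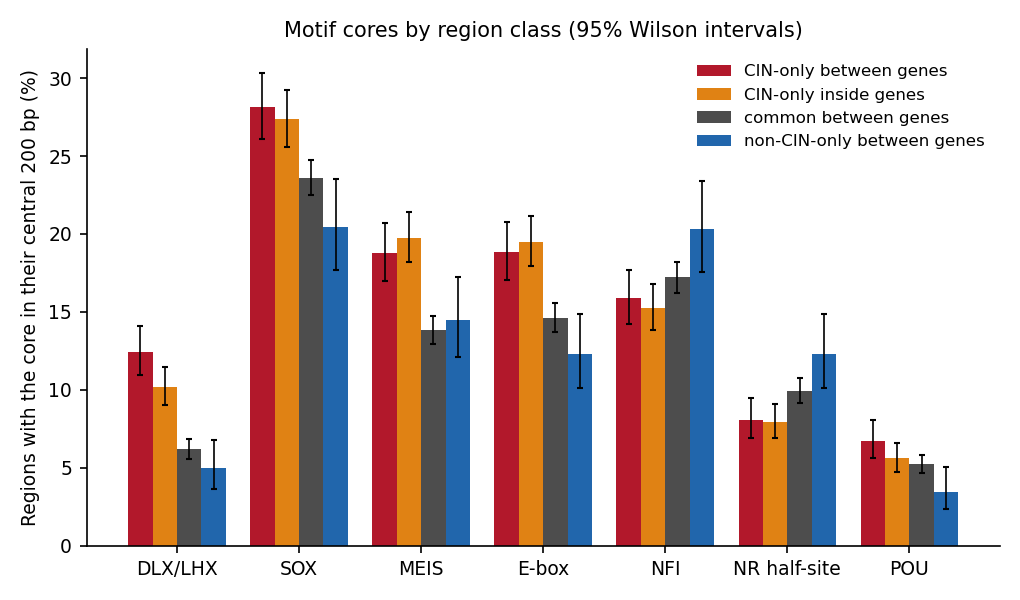
Share of regions (y axis, %) with each motif core in their central 200 bp, for CIN-only regions between and inside genes and for common and non-CIN-only regions between genes. Bars are shares and lines 95% Wilson intervals. The DLX/LHX core stands at 12.4% in CIN-only regions between genes, 6.18% in common and 4.97% in non-CIN-only regions.

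Base composition and repeats were described beside the motifs. The median GC content of the central 200 bp was 44.5% in the regions, 48.0% in common and 47.0% in non-CIN-only regions between genes. A median of 8.79% of the bases of a region was soft-masked as repeat in the reference, 17 regions were over 50% masked and 432 had no masked base. Among the 569 strongest regions by the lower percentile 14.6% held a TAATTA core, and among the 568 weakest 10.7%, with no test. The corresponding median lengths were 657 and 274 bp, and H3K27me3 in any list was present at 50 and 21 regions.

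Chromosome 18 had the most regions for its length, at 1.01 per Mb, and the X chromosome the fewest of the chromosomes with any, at 0.134 per Mb. Set against common regions between genes, the counts were more even, from 24.0 per 100 common regions on the X chromosome to 40.2 on chromosome 16. No region lay on the Y chromosome, where no common region between genes was found either.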

How the data were processed

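H3K27ac and H3K27me3 native ChIP-seq lists of CINs and non-CINs were used, 8 in all with 2 replicates each. Input samples entered only through peak calling. The submitters' processing notes name BWA 0.7.15, SAMtools, MACS2 2.2.7 and the build mm10. With these the authors mapped and filtered the reads, and each replicate was given a list of broad peaks over its own input. The deposited fold enrichment, a ratio of ChIP over input, was given by that caller, and the deposited −log10 q value is its significance for the peak. No read counts were used, so depth is unknown.

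Genes came from the GENCODE vM21 basic annotation and sequence from RefSeq GRCm38.p6. Tests across regions were Fisher's exact test (two-sided) for shares of classes, with Benjamini-Hochberg adjustment over 21 motif and 2 distance tests. A planned McNemar test of H3K27me3 takes regions as replicates, so its p-values are not given. Intervals are 95% intervals (Wilson's for shares, Woolf's for odds ratios). Named regions were the 10 strongest, the 5 groups with the most members, the 15 genes nearest to the most members (ties in both by summed length), members near genes of 5 interneuron lists and the one with the hs1060 amplicon. Examples from other lists were named after their values were seen. The members and all lists were chosen with earlier results of these data known. Python 3.11.15, SciPy 1.17.1, statsmodels 0.14.6 and pysam 0.24.0 were used. Interval steps were tested on simulated data against bedtools 2.31.1. Alternatives are given in the closing section. The values of 1 listed gene are not reported here.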

Additional observations from a re-analysis of the deposited data

How the results depend on the processing

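The number of regions depended on the replicates and the overlap required. It was 1705 in the report, between 3256 and 5669 from 1 replicate alone, and 979 where replicates had to overlap by 50% of both peaks. Replicate numbers are not stated to mark shared animals. Differences between replicates of CINs and of non-CINs in peak presence had a correlation of 0.158, and without the replicate block there were 1800 regions.

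The share with another member within 50 kb (28.7%) was between 35.6% and 51.3% from 1 replicate, 22.8% with −log10 q of at least 4, 43.9% with no merging, 25.7% with a gap of 1000 bp, 15.2% with the 50% overlap and 31.2% with protein-coding genes only. It was 20.1% within 25 kb and 40.2% within 100 kb. The distance comparisons kept their direction and stayed under 0.05 in every alternative run, and H3K27me3 in non-CINs only stayed more frequent than in CINs only. Of 7 cores, 6 differed from common regions, and 3 did with −log10 q of at least 4. The DLX, SOX and MEIS cores did so in all 11 alternatives, with odds ratios of 1.60–2.69, 1.18–1.31 and 1.26–1.502. The DLX core against CIN-only regions inside genes was called in 6 of the 11. Listed genes with a region were 43 by nearest TSS and 59 by regulatory domains. Single lists moved by over 1.5 times from 2 to 5 (astrocyte), 1 to 3 (GABA), 2 to 4 (subtype, and MEIS and PBX), 3 to 5 (pallial) and 1 to 2 genes (endothelial).

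Odds ratios that crossed 1 all had main values that were not called. For the NFI core against common regions this was 1.04 with the 50% overlap and 1.01 without replicate 2. Against CIN-only regions inside genes, the MEIS core was 1.002 with no merging and between 0.98 and 1.03 from 1 replicate, the E-box was between 0.85 (called, exact test, adjusted p = 0.019) and 1.06 from 1 replicate, and the NFI core was 0.99 with no merging, 0.97 with protein-coding genes only and 0.96 with the wider promoter. The nuclear receptor core there was 0.99 with no replicate block, 0.94 with stricter peaks, 0.92 with no merging, 0.87 with the 50% overlap, 0.995 with protein-coding genes only, 0.95 with a 500 bp window and between 0.83 and 0.95 from 1 replicate, the lower being called (replicate 1 alone, exact test, adjusted p = 0.0028). The causes were not tested. A peak call at unknown depth limits all of these counts, since signal under the threshold counts as absent.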
